A study of Mus musculus with 8 samples.

Results

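The question here was where mLJZD, an agent whose name the labels leave unexpanded, changed RNA levels differently in transplanted tumours than in cultured cells. For each gene the log2 fold change in cultures was subtracted from the log2 fold change in tumours. A positive difference means a more positive log2 fold change in tumours, which can also be a weaker fall there or a fall in cultures alone. The genes described were chosen by their level: a mean of at least 5 CPM (the count scaled to a common library total) was required in each of the 4 groups, and 9454 of the 56953 genes in the table met this. Of those 9454 genes, called members below, all were among the 16090 genes tested. The difference itself chose no gene, but a gene with fewer than 5 CPM in even 1 group was left out however strongly it changed.

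The material was CT26, a mouse colorectal carcinoma line. Tumours grown from transplanted cells received normal saline or mLJZD, and cultures were kept for 48 hours in medium with 10% control serum or with 10% serum that contained mLJZD. The labels name no genetic change in any group. The transplanted and the cultured cells came from a single line, but the tumour libraries also hold RNA of host cells. Cultures met mLJZD only as a serum, so that the form of the agent differed between the 2 materials. Each group had 2 libraries. The labels do not say whether these came from separate animals or cultures, and the p-values therefore cover only how far 2 libraries of a group lay apart, a spread that may be technical.

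A cultured carcinoma line is a single cell type in uniform medium. A tumour adds uneven oxygen and nutrient supply, stromal cells and immune cells, and an agent given to the host can be metabolised before it reaches the tumour. Stress pathways such as the hypoxia response, which raises glycolytic enzymes, and the ATF4 pathway, which raises amino acid supply genes and the factor CHOP, read out such conditions in both settings.

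Library totals ran from 16594912 to 29363861 counts, and the members held 94.6% to 95.0% of them in tumours and 98.9% in cultures. Replicates of each group differed by more than sampling noise. Of 8 epithelial markers, Krt18 was at 29.2 to 39.0 CPM in cultures, at 16.6 and 15.8 CPM in saline tumours and at 1.86 and 2.23 CPM in mLJZD tumours. Krt8 was at 2.39 and 3.28 CPM in saline and 0.27 and 0.36 CPM in mLJZD tumours. The markers did not fall as a set. Cdh1 was at 2.95 and 3.28 CPM in saline and 4.75 and 3.98 CPM in mLJZD tumours, and Epcam at 0.36 and 0.51 against 0.87 and 0.36 CPM. Krt19, Cdx2, Vil1 and Cldn7 were at 0 to 0.18 CPM in tumours. Epcam was at 0 in all 4 culture libraries, and all of these markers except Krt18 stayed under 5 CPM in every library. The level rule keeps out genes that cultures lack, so it does not show the members to be free of RNA from other cells. Markers of other cells were almost all outside the members: none of the neutrophil, B and plasma cell, T and NK cell, endothelial, erythroid or pan-leukocyte markers qualified. The exceptions were Des (muscle), Cd68 (macrophage), Col1a1, Col1a2, Col3a1, Col6a1 and Pdgfrb (fibroblast) and Fabp4 and Plin4 (adipocyte). The 20 skeletal muscle markers summed to 3558 and 3592 CPM in saline tumours and 677 and 675 CPM in mLJZD tumours, and the 12 B and plasma cell markers to 55.8 and 57.3 CPM in saline and 523 and 472 CPM in mLJZD tumours. Pan-leukocyte markers summed to 633 and 636 CPM in saline tumours, 710 and 664 CPM in mLJZD tumours and 0.676 to 1.46 CPM in cultures. Macrophage markers summed to 2846 and 2900 CPM in saline tumours, 2721 and 2615.5 CPM in mLJZD tumours and 9.25 to 11.9 CPM in cultures. In bulk tissue fewer cells of a type and less RNA per cell cannot be told apart. The part of other cells, or of whatever lowered Krt18 and Krt8, in the tumour effects on members was not tested.

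The effect of mLJZD differed between tumours and cultures for 6032 of the 9454 members by edgeR's quasi-likelihood test at an adjusted p under 0.05. It was more positive in tumours for 3277 members (34.7%, against 23.8% of all genes tested) and more negative for 2755 (29.1%, against 20.5%). Few differences were large. At 2-fold or more, 606 members were more positive (6.41%, against 6.64% of all genes tested) and 673 more negative (7.12%, against 7.15%), so at that size the members stood near the background. With scaling to library totals in place of TMM the share of calls that were more positive went from 54.3% to 39.9%, and the median difference of the members from 0.08 to -0.10 on the log2 scale. The balance between both directions therefore depended on the scaling, and the list medians below are to be read against the median of the members.

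The effects in cultures were wider than those in tumours. The standard deviation over the members was 0.27 on the log2 scale in tumours and 0.59 in cultures. In tumours 1299 members rose (13.7%, against 10.7% of all genes tested) and 1194 fell (12.6%, against 10.4%). In cultures 3050 rose (32.3%, against 23%) and 3783 fell (40%, against 28.1%). Across the members, which are not independent, the effects in the 2 materials had a Pearson correlation of -0.15 and a Spearman correlation of -0.17, and 44.1% of members had the same sign in both. These 2 effects share no library.

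The difference followed transcript length. Members whose longest annotated transcript was under 1000 bases had a median difference of 0.93, those of 1000 to 2000 bases 0.62, those of 2000 to 4000 bases 0.17, those of 4000 to 8000 bases -0.36, and those of 8000 bases or more -1.01. Nearly all of this lay in the cultures, where the median effect ran from -0.82 in the shortest to 0.94 in the longest bin. In tumours it ran only from 0.12 to -0.06. Of the 496 shortest members 413 were more positive in tumours and 9 more negative, and of the 551 longest 22 were more positive and 465 more negative.

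The libraries that stood apart in length profile were those of the control cultures. Relative to the mean of the saline tumours, their median log2 CPM was 0.67 and 0.53 higher for the shortest members, and for the longest it differed by -1.10 and -1.03. Both mLJZD cultures lay between -0.08 and 0.14 in every length bin, and both mLJZD tumours between -0.16 and 0.11. In the lines by library, the control cultures are thus the pair that crosses the other 3 groups.

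**Figure D1:**
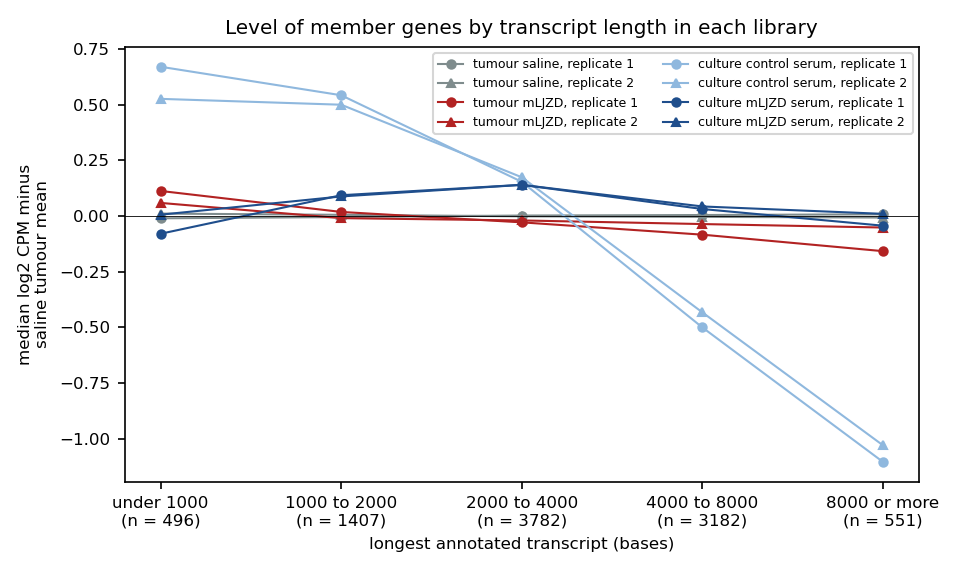
Median log2 CPM of members minus the mean of the saline tumours (y axis) by length of the longest annotated transcript in bases (x axis, number of members in brackets), 1 line per library. The control cultures fall from 0.67 and 0.53 in the shortest bin to -1.10 and -1.03 in the longest, while the other 6 libraries stay between -0.16 and 0.14.

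A second fit removed from each library the smooth trend of its counts on transcript length and GC content within its material. Values below are from the fit without this adjustment unless named as adjusted, and the adjusted value is given beside the main differences and list medians, since a response that itself depends on transcript length cannot be told apart from a technical trend here. After adjustment the median difference ran from 0.29 in the shortest to -0.07 in the longest bin, and the standard deviation of the culture effects was 0.38. Members more positive in tumours numbered 2843 (30.1%, against 19.9% of all genes tested) and more negative 1727 (18.3%, against 14.2%). Of the calls without adjustment, 2071 of the more positive (63.2%) and 1449 of the more negative (52.6%) were called in the same direction with it, 155 (2.57%) were called in the opposite direction, and 895 members were called only with it. With adjustment 1398 members rose in tumours (14.8%, against 11.3% of all genes tested) and 1287 fell (13.6%, against 11.3%), and in cultures 1888 rose (20%, against 15.3%) and 3212 fell (34%, against 22.6%). The correlation of the effects was then -0.07 (Pearson) and -0.08 (Spearman), with 46.9% of members of the same sign.

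**Figure D2:**
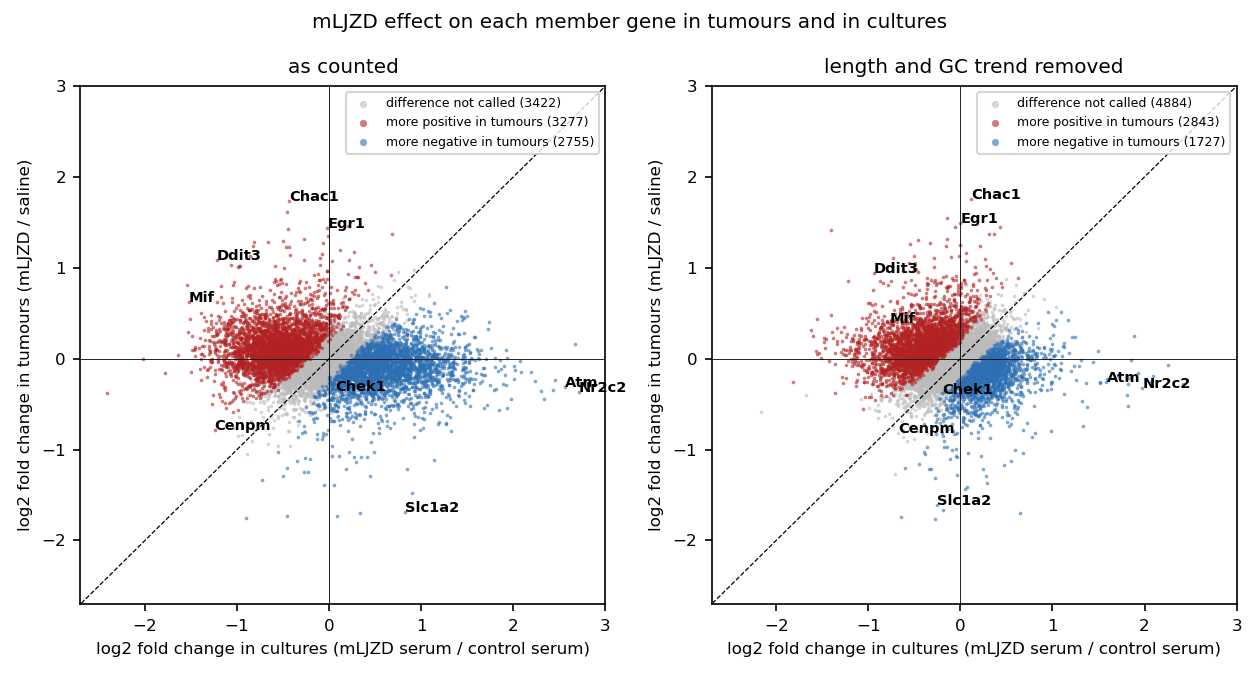
Log2 fold change of each member in cultures (x axis) and in tumours (y axis), as counted on the left and with the length and GC trend removed on the right; colours mark the sign of a called difference and the dashed line equal effects (1 point lies outside the axes). The cloud is wider along the culture axis, and narrows on the right, where 2843 members are more positive and 1727 more negative in place of 3277 and 2755.

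Calls in both materials fell into 4 patterns. A rise in tumours with a fall in cultures was called for 649 members (6.86%, against 4.31% of all genes tested), and a fall in tumours with a rise in cultures for 541 (5.72%, against 3.62%). Both effects were rises for 342 members (3.62%, against 2.36%) and falls for 349 (3.69%, against 2.50%). With adjustment the first pattern held 554 members (5.86%, against 3.64%) and the second 334 (3.53%, against 2.32%). Shared rises then numbered 258 (2.73%, against 1.78%) and shared falls 392 (4.15%, against 2.75%). The members that rose in tumours and fell in cultures had a median transcript length of 1954 bases, and those with the reverse pattern 5768, against 3474 for all members. For the remaining members the share over all genes tested was not computed. Of these, 4952 changed in cultures only, 612 in tumours only and 2009 in neither. An effect that missed the threshold is not shown to be absent. These counts rested on each tumour library: without any 1 of the 4, the first pattern held 239 to 358 members, the second 220 to 300, shared rises 164 to 189 and shared falls 114 to 154.

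Few members changed at least 2-fold in both materials and in opposite directions. Among them Ddit3 rose in tumours and fell in cultures, and Cgnl1, which encodes a junction protein, fell in tumours and rose in cultures. Cgnl1 was named after its values were seen: it was at 44.7 and 42.7 CPM in saline tumours, 18.8 and 20.7 CPM in mLJZD tumours, 70.6 and 82.4 CPM in control cultures and 189 and 181 CPM in mLJZD cultures. Its groups did not overlap within either material, and its difference was -2.25 (edgeR adjusted p = 5.82e-10; -1.71 after adjustment for length and GC).

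Genes of the ATF4 and CHOP pathway stood at the upper end. Ddit3 (ENSMUSG00000025408), which encodes CHOP, the transcription factor of prolonged translational stress, was at 37.5 and 36.3 CPM in saline tumours and 76.5 and 76.0 CPM in mLJZD tumours. In cultures it went the other way, from 219 and 224 CPM with control serum to 103 and 105 CPM with mLJZD serum. The mLJZD libraries were the higher pair in tumours and the lower pair in cultures, with no overlap. Its log2 fold change was 1.08 in tumours and -1.22 in cultures, a difference of 2.30 (SE 0.09, edgeR adjusted p = 1.46e-10; 1.88 with adjustment). Trib3, a pseudokinase induced by CHOP, rose from 30.8 and 28.6 to 68.7 and 68.1 CPM in tumours and fell from 388 and 393 to 266 and 216 CPM in cultures, a difference of 2.07 (SE 0.12, edgeR adjusted p = 1.53e-09; 1.60 with adjustment). Chac1, which degrades glutathione, rose from 14.8 and 15.6 to 48.1 and 50.0 CPM in tumours, the largest rise of these 3 genes. In cultures Chac1 went from 140 and 148 to 125 and 109 CPM, a fall that was lost with adjustment, where its culture effect was 0.12 (edgeR adjusted p = 0.201). Its difference was 2.17, and 1.64 with adjustment.

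Of the 32 members on the ATF4 and CHOP list, 25 were more positive in tumours and 4 more negative, with a median difference of 0.50 against 0.08 over all members. With adjustment the counts were 21 and 1 and the median 0.45 against 0.09. In tumours 21 of the 32 rose and none fell, both without and with adjustment. In cultures 5 rose and 18 fell, and 16 fell with adjustment. The factor itself, Atf4, rose by 0.33 on the log2 scale in tumours and fell by 0.50 in cultures, and the latter was -0.07 and not called with adjustment. Asns, asparagine synthetase, had a difference of 0.69 (0.51 with adjustment), and Slc3a2, a subunit of amino acid exchangers, of 1.20 (1.02 with adjustment). Cebpb, a partner of the ATF factors, was not called in tumours (log2 fold change 0.18) and fell by 1.21 in cultures (0.49 with adjustment, called in both fits). The amino acid transporter Slc7a1 and the folate enzyme Aldh1l2 rose in both materials in both fits. Their differences were -0.47 and -0.88, but with adjustment that of Slc7a1 was 0.17 and not called (edgeR adjusted p = 0.0659), and that of Aldh1l2 was -0.32.

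Hypoxia and glycolysis genes had the highest median of the 26 lists with adjustment. Of the 30 members 26 were more positive in tumours and 3 more negative, with a median difference of 0.94, and with adjustment 27 and 2, with a median of 0.89. In tumours 28 rose and 1 fell, with a median effect of 0.47 (0.48 with adjustment). In cultures 3 rose and 20 fell, with a median effect of -0.46 (-0.28 with adjustment). Slc2a1 (ENSMUSG00000028645), the glucose transporter GLUT1, was at 128 and 131 CPM in saline tumours and 319 and 308 CPM in mLJZD tumours, while in cultures it stood at 167 and 184 CPM without and 165 and 154 CPM with mLJZD. The tumour groups were far apart and the culture groups were close, and the small culture fall of 0.27 was -0.15 with adjustment (edgeR adjusted p = 0.0521). Its difference was 1.58 (SE 0.09, edgeR adjusted p = 1.18e-09) and 1.47 with adjustment.

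Higd1a, a mitochondrial protein induced by low oxygen, rose from 32.8 and 35.0 to 70.0 and 63.2 CPM in tumours and fell from 107 and 94.9 to 57.0 and 55.7 CPM in cultures. Bnip3, a mitophagy receptor, rose from 71.5 and 70.8 to 155 and 151 CPM in tumours and fell from 175 and 154 to 131 and 137 CPM in cultures. Ddit4, an inhibitor of mTORC1, rose from 65.6 and 62.4 to 107 and 107 CPM in tumours and fell from 91.9 and 93.2 to 56.4 and 59.4 CPM in cultures. For these 3 genes the groups did not overlap within a material, and their differences of 1.99, 1.57 and 1.59 were 1.76, 1.39 and 1.07 with adjustment. The glycolytic enzymes moved with them: Pgk1 was at 943 and 958 CPM in saline and 1728 and 1672 CPM in mLJZD tumours, and at 2484 and 2569 against 1999 and 1855 CPM in cultures. Ldha, lactate dehydrogenase A, was at 1508 and 1539 against 2261 and 2204 CPM in tumours and at 4466 and 4464 against 2966 and 2809 CPM in cultures. The difference was 1.40 for Pgk1 and 1.35 for Ldha, and 1.15 and 1.05 with adjustment. The exceptions with a negative difference were Hk2 (-0.59, and -0.20 with adjustment, not called), Pfkm (-0.84 and -1.05) and Pfkfb4 (-0.83 and -0.93). Hk2, a hexokinase, rose in both materials, from 74.2 and 76.2 to 85.6 and 94.7 CPM in tumours and from 96.9 and 108 to 212 and 203 CPM in cultures. Pfkm, the muscle form of phosphofructokinase, fell by 1.10 in tumours, where the muscle marker sum was also lower, and the part of muscle RNA in that fall was not tested. Car9, a usual hypoxia marker, was under the level required in saline tumours.

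Promoter sequence was read for members that moved together, from RefSeq on build GRCm38.p6. The counts themselves use GRCm39, so these coordinates apply to the earlier build only. The hypoxia response element core ACGTG was searched on both strands in the 250 bases before each start. It was found for 16 of the 27 hypoxia members with a window (59.3%), 26.7% of members and 18.5% of all genes with a window, and for 12 of the 18 that rose in tumours and fell in cultures. The element TGATGNAA, chosen after the values were seen, joins an ATF4 half-site to a C/EBP half-site. It was found for 7 of 26 ATF4 and CHOP members (26.9%), 2.26% of members and 3.91% of all genes. Of the 9 that rose in tumours and fell in cultures, 2 held it (22.2%). These shares count a match in any window of a gene. With the first window only, the hypoxia share was 44.4%, against 23.3% of members and 16.6% of all genes. The ATF4 and CHOP share was then 23.1%, against 1.8% and 3.53%. A match is a description of the letters only. The 60-base stretches below surround the match, in capitals on the gene's strand or as its reverse complement; Hk2 and Slc7a11 are shown because they hold a match and yet rose in both materials without adjustment. They lie at chr10:59951925-59951984 (minus strand, Ddit4), chr7:138909581-138909640 (minus, Bnip3), chrX:106186942-106187001 (plus, Pgk1), chr7:46845743-46845802 (plus, Ldha), chr6:82774474-82774533 (minus, Hk2), chr2:119351023-119351082 (plus, Chac1) and chr3:50443627-50443686 (minus, Slc7a11).
Ddit4: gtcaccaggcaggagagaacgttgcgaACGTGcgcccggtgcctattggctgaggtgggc
Bnip3: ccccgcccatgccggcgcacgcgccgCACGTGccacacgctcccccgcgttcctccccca
Pgk1: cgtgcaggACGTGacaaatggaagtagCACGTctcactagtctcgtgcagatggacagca
Ldha: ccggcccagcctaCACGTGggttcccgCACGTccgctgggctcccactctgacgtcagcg
Hk2: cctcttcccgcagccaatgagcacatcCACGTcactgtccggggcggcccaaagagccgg
Chac1: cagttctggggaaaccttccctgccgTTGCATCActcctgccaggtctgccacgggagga
Slc7a11: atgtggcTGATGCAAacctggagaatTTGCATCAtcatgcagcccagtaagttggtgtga

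Slc7a11, the cystine transporter, was at 18.9 and 17.5 CPM in saline and 24.9 and 24.2 CPM in mLJZD tumours, and at 28.8 and 35.2 against 51.6 and 60.8 CPM in cultures. It rose in both materials, and with adjustment its culture effect turned from 0.68 to -0.27, so that its difference went from -0.21, not called, to 0.79, called. Of the 7 genes printed it was the only one whose culture effect changed sign among called values, and its direction in cultures depends on the adjustment.

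Immediate early genes, which answer growth factors and stress within minutes, and the phosphatases that switch MAP kinases off were mostly more positive in tumours. Of 26 members 22 were more positive and 2 more negative, with a median difference of 0.72, and with adjustment 17 and 2, with a median of 0.59. In tumours 20 rose and 3 fell. In cultures 5 rose and 13 fell, and with adjustment 8 rose and 7 fell, so that the culture side had no common direction. Egr1, a zinc finger factor, was at 260 and 262 CPM in saline tumours and 687 and 691 CPM in mLJZD tumours. Cultures had 93.4 and 102 CPM with control serum and 93.8 and 117 CPM with mLJZD serum, which overlapped. Its difference was 1.46 (SE 0.11, edgeR adjusted p = 2.51e-08) and 1.49 with adjustment. Dusp1, a MAP kinase phosphatase, rose from 32.3 and 32.1 to 74.3 and 72.3 CPM in tumours and stood at 23 and 29.0 against 20.6 and 20.7 CPM in cultures, a difference of 1.69 (1.40 with adjustment). Jund, an AP-1 subunit, rose by 0.81 in tumours and fell by 1.04 in cultures, the latter by 0.36 with adjustment. Dusp4 ran against the list, with a difference of -0.96 (-1.24 with adjustment). Ccn1, an extracellular matrix protein induced by YAP, was at 30.1 and 32.6 against 78.5 and 77.3 CPM in tumours and at 80.5 and 76.0 against 84.2 and 86.4 CPM in cultures, a difference of 1.36 (1.05 with adjustment).

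Ribosomal protein genes had the highest list median without adjustment. Of 80 members, 79 were more positive in tumours and none more negative, with a median difference of 1.22, and with adjustment 71 and none, with a median of 0.75. In tumours 58 rose and none fell (47 and none with adjustment), with a median effect of 0.29. In cultures all 80 fell without adjustment, with a median effect of -0.90, and with adjustment 74 fell and 1 rose, with a median of -0.54. Rpl13 of the large subunit was at 1318 and 1350 CPM in saline and 1824 and 1797 CPM in mLJZD tumours, and at 2496 and 2258 against 1031 and 1109 CPM in cultures. Its difference of 1.77 (SE 0.09, edgeR adjusted p = 4.26e-10) was 1.47 with adjustment. Rplp1, of the ribosomal stalk, rose by 0.39 in tumours without adjustment, while with it the effect was 0.08 (edgeR adjusted p = 0.254). The transcripts are short, with a list median of 1076.5 bases, and reads can be shared with processed pseudogenes, so single ribosomal genes are uncertain. Translation factors, with a median difference of 0.31 (0.22 with adjustment), were divided: 23 of 43 were more positive and 8 more negative. Eif3i, a subunit of initiation factor 3, was at 154 and 153 against 206 and 200 CPM in tumours and 335 and 323 against 199 and 199 CPM in cultures, a difference of 1.30 (1.17 with adjustment).

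Nuclear genes of oxidative phosphorylation and of the mitochondrial ribosome differed mainly through the cultures. Of 74 oxidative phosphorylation members 70 were more positive in tumours and 1 more negative (51 and 3 with adjustment), with a median difference of 0.93 (0.46 with adjustment). In cultures 70 fell and none rose, whereas in tumours 10 rose and none fell. With adjustment 7 rose and 12 fell in tumours, so that the tumour side had no single direction. Uqcrq, a subunit of complex III, was at 74.4 and 79.1 against 87.3 and 89.7 CPM in tumours and at 281 and 233 against 94.0 and 107 CPM in cultures, a difference of 1.73 (1.40 with adjustment). Of 77 mitochondrial ribosomal protein members 67 were more positive (40 with adjustment), with a median of 0.66 (0.39 with adjustment), and 74 fell in cultures. Of 32 proteasome members 26 were more positive and 1 more negative, which became 13 and 3 with adjustment, with a median of 0.44 and then 0.13. Mitochondrially encoded genes, with 10 members, had 1 call in each direction. Their median difference of 0.25 was -0.07 with adjustment and -0.14 without replicate 1 of the mLJZD cultures, and mt-Atp6 spread from 12.5 to 47.4 CPM within the control cultures.

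NRF2 targets, the genes of antioxidant defence, were more positive in tumours for 21 of 35 members and more negative for 2 (16 and 3 with adjustment), with a median difference of 0.47 (0.30 with adjustment). In cultures 26 fell and 3 rose (22 and 1 with adjustment), and in tumours 9 rose and 6 fell (11 and 7 with adjustment). Fth1, the ferritin heavy chain, was at 1557 and 1593 against 1863 and 1758 CPM in tumours and at 3759 and 3492 against 2101 and 1959 CPM in cultures, a difference of 1.21 (0.99 with adjustment). Cholesterol genes had a higher median with adjustment (0.29) than without (0.18), with 14 of 25 members more positive and 2 more negative with it. Fdps, farnesyl diphosphate synthase, rose from 129 and 133 to 183 and 170 CPM in tumours and fell from 77.9 and 71.5 to 46.3 and 39.2 CPM in cultures, a difference of 1.42 that was 1.35 with adjustment. Among 26 p53 target members 13 were more positive and 4 more negative (12 and 1 with adjustment). Gadd45a, a stress and repair protein that the ATF4 pathway also induces, was at 14.4 and 14.9 against 31.9 and 26.0 CPM in tumours and at 233 and 211 against 128 and 121 CPM in cultures, a difference of 2.00 (1.59 with adjustment).

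Genes more negative in tumours were led by long transcripts. Nr2c2 (ENSMUSG00000005893), an orphan nuclear receptor, was at 67.4 and 63.0 CPM in saline and 44.4 and 54.5 CPM in mLJZD tumours. In cultures it was at 6.92 and 9.37 CPM with control serum and 58.5 and 58.3 CPM with mLJZD serum. The control cultures were thus the low group, and the mLJZD cultures lay within the range of the tumours. Its difference was -3.07 (SE 0.15, edgeR adjusted p = 4.62e-10) and -2.30 with adjustment. Med12, a subunit of the Mediator kinase module, also had its lowest values in the control cultures, while its mLJZD cultures lay below every tumour library. It was at 126 and 122 against 89.7 and 99.0 CPM in tumours and 13.1 and 15.9 against 75.9 and 80.7 CPM in cultures, a difference of -2.66 (-2.10 with adjustment). Vps13c, a lipid transfer protein (-2.78, and -1.64 with adjustment), Rnf213, a large ubiquitin ligase (-2.42 and -1.32), and Hipk2, a kinase of the DNA damage response (-2.41 and -1.79), also fell in tumours and rose in cultures in both fits.

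Slc1a2 differed from that group. This glutamate transporter fell from 22.5 and 19.2 to 5.95 and 6.63 CPM in tumours, an effect of -1.69 on the log2 scale (edgeR adjusted p = 4.16e-07), and was at 23.2 and 30.0 against 48.8 and 54.2 CPM in cultures. Its culture rise of 0.82 was -0.25 and not called with adjustment, and its difference went from -2.51 to -1.36. Among the genes with the reverse pattern, Angptl6, a secreted angiopoietin-like protein (2.35, and 1.68 with adjustment), Mif, a cytokine (2.15 and 1.17), Krtcap2, a subunit of the oligosaccharyltransferase (2.11 and 1.59), and Cdsn, a desmosomal protein (2.10 and 1.77), rose in tumours and fell in cultures in both fits. Mif was at 216 and 224 against 333 and 329 CPM in tumours and at 855 and 806 against 283 and 350 CPM in cultures. Angptl6 and Cdsn lay near the level threshold in saline tumours. In tumours Angptl6 was at 7.52 and 5.10 against 10.6 and 11.0 CPM, and Cdsn at 6.14 and 7.02 against 15.1 and 16.1 CPM.

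Among genes of DNA repair and replication, more members were more negative in tumours than more positive. Of 48 members of the ATR checkpoint and repair list, 27 were more negative in tumours and 4 more positive, with a median difference of -0.47, and with adjustment 24 and 5, with a median of -0.34. In tumours 22 fell and none rose. In cultures 26 rose and 7 fell, and with adjustment 19 rose and 10 fell. Atm (ENSMUSG00000034218), the kinase that answers DNA double-strand breaks, was at 66.6 and 59.9 against 45.7 and 53.5 CPM in tumours and at 11.7 and 15.2 against 87.6 and 86.0 CPM in cultures, a difference of -2.87 (SE 0.14, edgeR adjusted p = 4.37e-10) and -1.84 with adjustment. Fanci, of the Fanconi anaemia crosslink repair pathway, fell from 20.9 and 22.7 to 10.6 and 14.0 CPM in tumours and rose from 10.1 and 10.5 to 29.8 and 26.6 CPM in cultures. Its difference of -2.11 was -1.78 with adjustment, and its groups did not overlap in either material. Atr, the kinase that activates CHEK1, had a difference of -1.73 (-0.85 with adjustment).

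Of 53 DNA replication members 22 were more negative and 11 more positive, and with adjustment 25 and 4, with medians of -0.18 and -0.25. In tumours 33 fell and 1 rose. In cultures 13 rose and 23 fell, so the replication genes had no common direction there. Pola1, the catalytic subunit of DNA polymerase alpha, fell from 141 and 147 to 96.0 and 94.8 CPM in tumours and rose from 74.8 and 88.2 to 173 and 158 CPM in cultures, a difference of -1.45 (-0.93 with adjustment). Mcm4, of the replicative helicase, fell from 193 and 196 to 133 and 135 CPM in tumours, while its culture rise of 0.30 was 0.13 and not called with adjustment. Of 59 G2 and mitosis members 32 were more negative and 16 more positive (28 and 12 with adjustment), with medians of -0.28 and -0.15, and 27 fell in tumours with 1 that rose. Mki67, the proliferation antigen Ki-67, was at 584 and 563 against 417 and 445 CPM in tumours and at 135 and 136 against 332 and 364 CPM in cultures. Its difference of -1.60 was -0.58 with adjustment, and its culture rise was 1.23 without and 0.28 with adjustment (edgeR adjusted p = 0.000425). Aspm, a spindle pole protein, had a culture rise of 1.12 that was 0.16 and not called with adjustment.

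The genes in the title of the series differed between materials less clearly. Chek1 (ENSMUSG00000032113), the checkpoint kinase CHK1, was at 23.8 and 23.1 against 16.6 and 19.2 CPM in tumours and at 26.8 and 25.8 against 29.8 and 30.6 CPM in cultures. It fell by 0.36 in tumours (edgeR adjusted p = 0.0195) and its culture effect of 0.07 was not called. The difference of -0.42 was called (SE 0.14, edgeR adjusted p = 0.0198), but with adjustment it was -0.19 (edgeR adjusted p = 0.301). Cenpm (ENSMUSG00000068101), a centromere protein, fell in both materials, from 32.3 and 33.1 to 19.4 and 17.4 CPM in tumours and from 50.7 and 52.3 to 24.4 and 23.4 CPM in cultures. Without adjustment the fall was deeper in cultures, with a difference of 0.46 (SE 0.12, edgeR adjusted p = 0.00635). With adjustment the difference was -0.14 and not called (edgeR adjusted p = 0.424), so its sign depended on the adjustment. Centromere and kinetochore genes had no direction as a list: of 39 members 11 were more positive and 12 more negative, and the median of 0.06 was -0.05 with adjustment and -0.12 with scaling to library totals. In tumours none of them rose and 14 fell (1 and 16 with adjustment).

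The chromatin remodelling list had the largest change of median with adjustment. Of 50 members on the chromatin remodelling and histone methylation list, whose median transcript length was 7613.5 bases, 41 were more negative and 2 more positive, with a median difference of -0.80. With adjustment 21 were more negative and 5 more positive, with a median of -0.21. Kmt2a, a histone H3 lysine methyltransferase, was at 154 and 147 against 108 and 125 CPM in tumours and at 19.3 and 18.7 against 73.4 and 73.1 CPM in cultures, a difference of -2.14 that was -1.04 with adjustment. Of 39 histone acetylation members 19 were more negative and 11 more positive without adjustment and 9 and 9 with it, with medians of -0.14 and -0.06. Ep300, the acetyltransferase p300 that writes H3K27ac, was at 183 and 182 against 132 and 147 CPM in tumours and at 27.3 and 29.5 against 102 and 114 CPM in cultures, and its difference of -2.14 was -1.25 with adjustment. These libraries measure RNA and not histone marks.

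Interferon response genes were more negative in tumours for 19 of 33 members and more positive for 6 (17 and 3 with adjustment), with medians of -0.51 and -0.33. In cultures 20 rose and 8 fell (19 and 7 with adjustment), and in tumours 3 rose and 7 fell (3 and 8 with adjustment). Parp12, an ADP-ribosyltransferase, fell from 138 and 139 to 92.1 and 98.1 CPM in tumours and rose from 41.3 and 40.0 to 63.2 and 59.2 CPM in cultures, and its difference was -0.95 without and -0.97 with adjustment. Eif2ak2, the kinase PKR, was not called in tumours (-0.09) and rose by 1.03 in cultures, or 0.71 with adjustment. Among 15 antigen presentation members 10 were more positive and 2 more negative, which became 4 and none with adjustment, and in tumours 7 fell and none rose. Psmb10, an immunoproteasome subunit, fell by 0.26 in tumours and by 1.01 in cultures, and its difference of 0.75 was 0.17 with adjustment (edgeR adjusted p = 0.282).

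Heat shock genes had a median of 0.05 (0.16 with adjustment), against 0.08 (0.09) over all members, with 8 of 19 more positive and 5 more negative, and Bag3, a co-chaperone, rose from 61.9 and 65.5 to 123 and 120 CPM in tumours and was at 29.7 and 30.7 against 32.3 and 33.1 CPM in cultures. Endoplasmic reticulum chaperone genes had a median of 0.13 in both fits (12 of 29 more positive, 5 more negative). Lysosome genes had one of 0.24 (14 of 28 and 3), or 0.12 with adjustment, and NF-kB genes one of 0.21 (7 of 15 and 1), or 0.19 with adjustment. The sign of the heat shock and endoplasmic reticulum medians turned with scaling to library totals, to -0.13 and -0.04. The median of all members was then -0.10. With TMM within each material the heat shock median was -0.04, against -0.01 over all members. YAP and TGF-beta response genes went from a median of -0.19 to 0.14 with adjustment, and splicing genes from -0.00 to 0.20, so neither list had a direction that both fits shared.

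**Figure D3:**
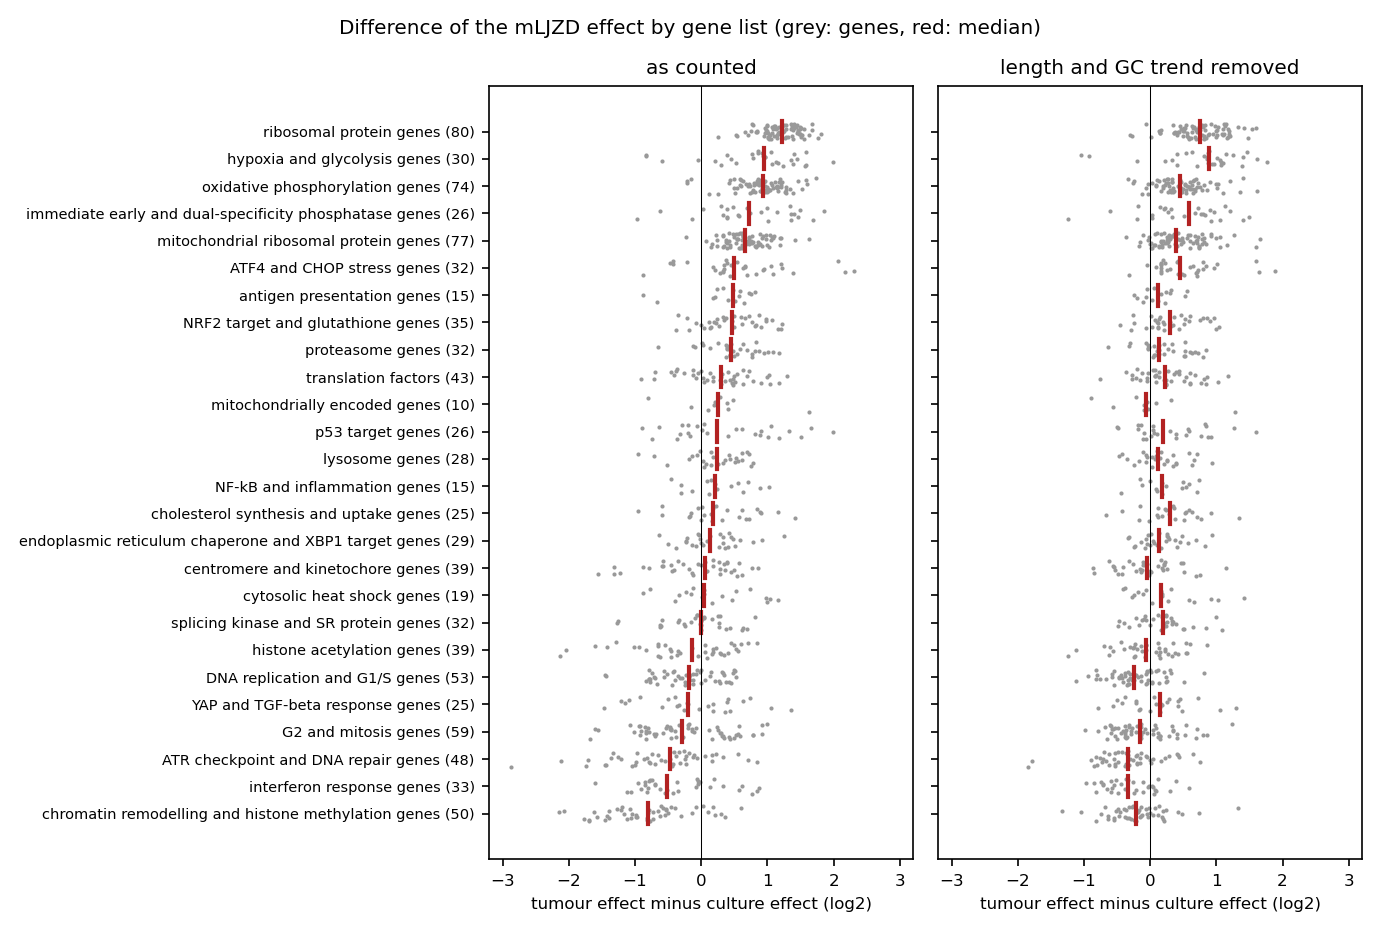
Difference of the mLJZD effect, tumours minus cultures, on the log2 scale (x axis) for the members of 26 gene lists (y axis, number of members in brackets), as counted on the left and with the length and GC trend removed on the right; grey points are genes and red bars list medians. The ribosomal median moves from 1.22 to 0.75 and the chromatin remodelling median from -0.80 to -0.21, while the hypoxia and glycolysis median stays at 0.94 and 0.89.

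Some members changed alike in both materials. By the rule used, 57 members rose and 99 fell in both materials in both fits with no called difference in either. The share of all genes tested that met this rule was not computed. A difference that was not called does not show equal effects. Rsad2, the antiviral protein viperin, rose from 25.0 and 25.4 to 37.7 and 42.7 CPM in tumours and from 6.53 and 6.98 to 16.5 and 15.0 CPM in cultures, and its difference was -0.37 (SE 0.16; -0.10 with adjustment). Loxl4, a matrix-crosslinking oxidase, rose by 0.62 in tumours and 0.78 in cultures (0.65 and 0.91 with adjustment). Sox9, a transcription factor of intestinal crypts, rose by 0.63 and 0.53 (0.62 and 0.32 with adjustment). Ell2, Chm, Mier1, Spin4 and Atg4c completed the 8 leading shared rises.

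Nr1d1, the clock repressor REV-ERB alpha, was among the leading shared falls. It fell from 149 and 152 to 77.6 and 78.5 CPM in tumours and from 28.3 and 28.8 to 14.7 and 20.1 CPM in cultures, log2 fold changes of -0.91 and -0.83 with a difference of -0.07 (SE 0.14; -0.39 with adjustment, edgeR adjusted p = 0.0528). Fbxo31, a ubiquitin ligase subunit, fell by 0.79 in tumours and 0.81 in cultures, with a difference of 0.02 (SE 0.11; -0.01 with adjustment). Mgst2, a microsomal glutathione transferase, fell by 0.76 and 0.61 (0.80 and 0.62 with adjustment). Shisa4, Napsa, Acot1, Acap1 and Rida were the other leading shared falls, and in all 8 the libraries of the groups did not overlap within a material.

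**Figure D4:**
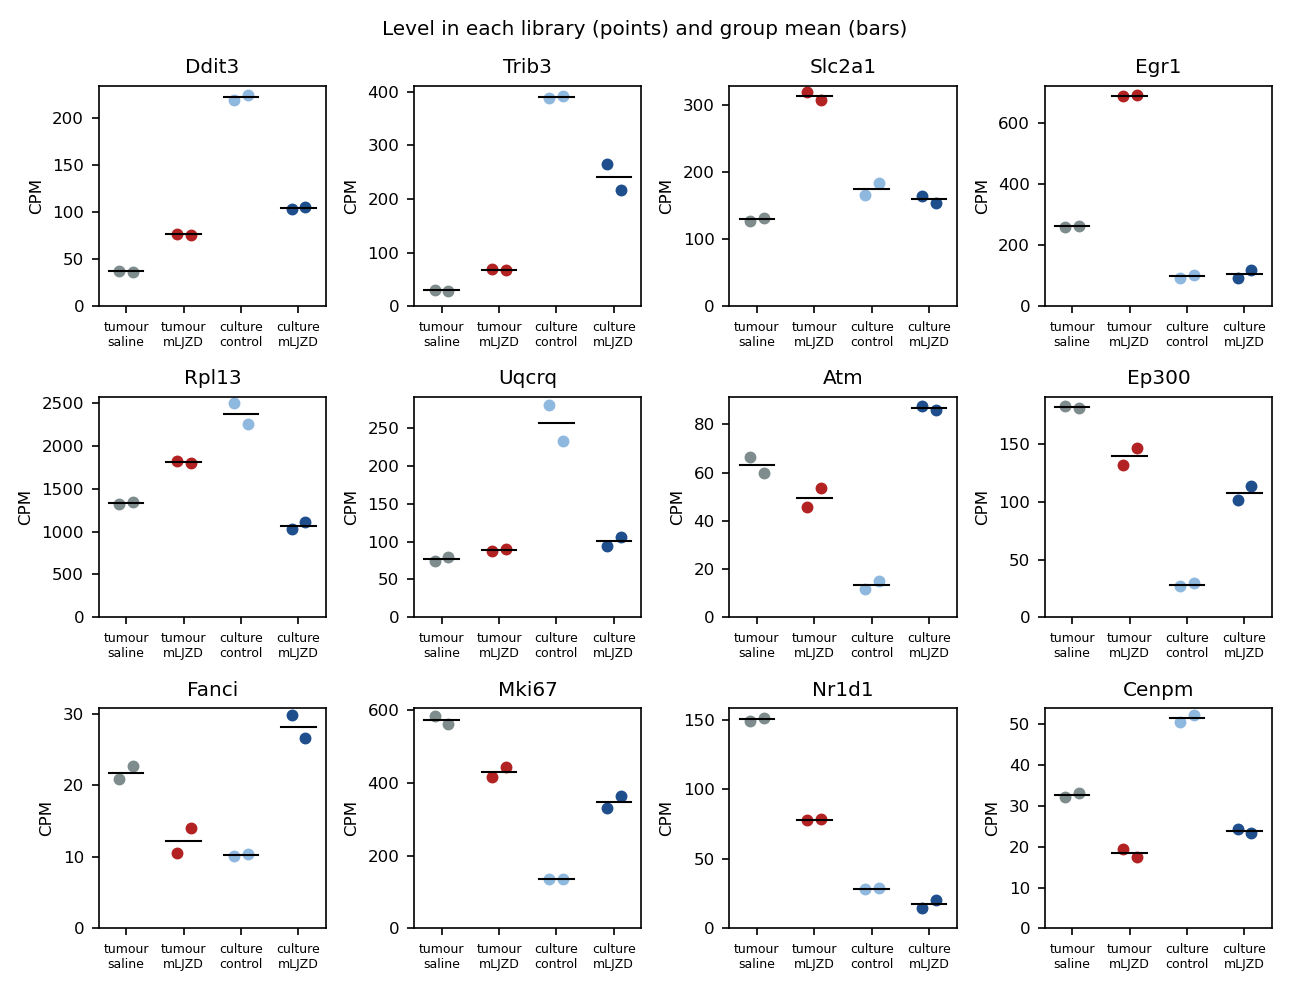
CPM in each library (points, replicates side by side) and group means (bars) for 12 members, with axes starting at 0. Ddit3, Trib3 and Rpl13 rise in tumours and fall in cultures, Egr1 and Slc2a1 rise in tumours, and for Atm, Ep300 and Mki67 the control cultures are the lowest group.

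At the level threshold, the members just inside were Parp14, Mlf1 and Pros1, whose lowest group means were 5.01, 5.01 and 5.01 CPM, with differences of -1.60, 0.23 and -0.31. The genes just outside were Sertad3, Zfp563 and Sdhaf4, at 4.99, 4.99 and 4.99 CPM, with differences of 1.33, -0.71 and 0.21.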

How the data were processed

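Gene-level RNA counts of 8 libraries, 2 in each of 4 groups, were analysed. The authors deposited raw counts per gene in 1 table. The build was GRCm39 and the tools were featureCounts 2.0.3, HISAT2 2.2.1, SAMtools 1.14, Trim Galore and FastQC 0.12.1, per the submitters' processing notes. Not given in the sources used here are the annotation release, whether strand was used and how multiply matching reads were counted, so antisense partners and near-identical copies may share counts.

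From these counts, CPM were computed on library totals. The log2 fold changes use TMM scaling, so ratios of the printed CPM can differ from them, mostly in cultures. There the median effect over members was -0.07 with TMM and 0.06 with library totals. Members had a mean of at least 5 CPM in each group. Genes were tested in 1 fit over all 8 libraries with edgeR 4.0.16 in R 4.3.3: quasi-likelihood F test, two-sided, TMM normalization, filterByExpr, and Benjamini-Hochberg adjustment over the 16090 genes tested. The threshold was an adjusted p of 0.05. The tumour effect, the culture effect and their difference are contrasts of this fit, and a standard error (SE) is the log2 value divided by the square root of F. No exact permutation test of a single gene can pass 0.05 with groups of 2, so p-values rest on the model across genes.

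The adjusted fit used as an offset each library's trend of log2 CPM, relative to the mean of its material, on transcript length and GC content (natural splines with 4 degrees of freedom each, from genes with at least 1 CPM). Lengths and GC came from the longest GENCODE M21 transcript, matched by identifier for 9418 members. The procedure was tested on simulated data.

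Named genes were Chek1 and Cenpm, the 8 largest differences per direction among members with opposite called effects, called in the difference in both fits (565 and 447 qualified), the 8 leading shared changes per direction, up to 4 called members per list with the largest differences, and 3 genes on each side of the level threshold. Some genes this rule names are not reported here. Further members of the hypoxia, ATF4 and immediate early lists were named after their values were seen, as were the epithelial markers. Members, rule and the 36 lists were chosen with earlier results of these data known. Alternatives covered scaling, filter, threshold, tool, replicate block, separate fits and each library left out.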

Additional observations from a re-analysis of the deposited data

Results flagged for a closer look

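A test of the difference between materials itself put these results here; no explanation was weighed. The count of members with a more positive effect in tumours was 3277, and with a more negative effect 2755. The difference was called for both genes of the title, at -0.42 on the log2 scale for Chek1 and 0.46 for Cenpm, neither of which was called with the length and GC trend removed. On the positive side the differences were 2.35 for Angptl6, 2.30 for Ddit3, 2.17 for Chac1, 2.15 for Mif, 2.11 for Krtcap2, 2.10 for Cdsn and 2.07 for Trib3. On the negative side they were -3.07 for Nr2c2, -2.87 for Atm, -2.78 for Vps13c, -2.66 for Med12, -2.51 for Slc1a2, -2.42 for Rnf213 and -2.41 for Hipk2. The genes listed on the positive and negative sides were chosen among members with called effects of opposite sign in the 2 materials. Opposite directions were therefore a condition of entry and not a result. They were ranked by the difference with the trend left in, and in both directions every listed difference was smaller in size with the trend removed.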

How the results depend on the processing

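With 1 library left out no single-gene result changed direction, but some were no longer called, most often without a tumour library. Genes named for leading opposite differences or shared changes had to keep that call with the length and GC trend removed. Most others had the largest differences of their list, so their stability was partly built in. Over all members, 58.4% of called differences were called in the same direction with that trend removed, and 155 in the opposite one. Of all 147 single-gene results, 139 kept direction and side of the threshold with the length and GC trend removed, 143 with DESeq2, and between 144 and 147 under the other scalings, without the filter and with a replicate block. Cenpm alone of these turned, its difference being -0.14 with the length and GC trend removed, -0.0150 with the length trend removed and -0.14 with the replicate block and the trend removed together; genes named after their values were seen, Slc7a1 among them, were not included. Members more negative in tumours numbered 1727 with the length and GC trend removed, 1653 with length alone and 1701 with the replicate block added; for members that fell in tumours and rose in cultures these settings gave 334, 299 and 320, and separate fits of each material 835. Members that rose in tumours and fell in cultures numbered 423 with library totals. With a 2-fold change required as well, 606 members were more positive (6.41%, against 6.64% of all genes tested) and 673 more negative (7.12%, against 7.15%). Then 2 rose in tumours and fell in cultures, 1 did the reverse, and 0 rose and 0 fell in both materials. The counts without that fold, by the same edgeR test, are in the report. The cause of these moves was not tested, except that the fold requirement removes genes by construction. For the 2-fold patterns in both materials, and for settings other than the length and GC fit, the share over all genes tested was not computed. Those counts therefore do not set the members apart from other genes.

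Leaving out 1 library at a time gave 2682 to 3338 more positive and 2439 to 2777 more negative members, 239 to 730 that rose in tumours and fell in cultures, 220 to 604 with the reverse, 164 to 376 that rose and 114 to 394 that fell in both; the low values came from leaving out a tumour library, where the lone library was assumed to vary like the other groups. Same-numbered libraries had a correlation of deviations of -0.08 in tumours and 0.01 in cultures and share only a number; with the replicate block 3258 members were more positive and 2721 more negative, and 98.0% of calls were shared. Of calls more positive in tumours the share was 54.3% as reported, 62.2% with the trend removed and 39.9% with library totals. For the counts with a library left out, here and above, and with the replicate block, the share over all genes tested was not computed. Depth limits members near 5 CPM most.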
